A study of Homo sapiens with 14 samples.

Results

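RBFOX3, a gene on chromosome 17, held the densest H3K27me3 domain in the peak lists of control DU145 cells, an established human prostate cancer line. The locus is taken here as hg19 chromosome 17, 77050001 to 77550000, a window of 500 kb that holds the approximate span of the gene (about 77085000 to 77512000). It was selected on its density of control H3K27me3 peaks, so that density is described and not tested. Of 227479 peaks in 14 lists, 463 lie in the window. Chromatin immunoprecipitation and sequencing (ChIP-seq) was done with antibodies to EED, H3K27me3, RING1A, RING1B and BMI1, and with a rabbit and a mouse antibody to ubiquitylated histone H2A (uH2A). Each of these 7 antibodies was used once in control cells with a scramble construct and once in cells with a stable knockdown of EED. All cells had been selected with puromycin, and the titles give the same construct name for every knockdown library. A difference between the cell lines therefore cannot be told apart from an effect of that one construct. There was 1 library per group, so no difference has a replicate check. The intervals given cover counting error only, and neighbouring peaks are not independent. EED and both uH2A antibodies form one library set and RING1A, RING1B, BMI1 and H3K27me3 another, which differ in the culture description. No read totals are given in the sources used here. A list holds only what passed the caller's threshold, so the lack of a peak does not show the lack of a mark.

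RBFOX3 encodes a neuronal splicing factor, the antigen known as NeuN, which is used as a marker of mature neurons. EED is a core subunit of the Polycomb complex PRC2, which writes H3K27me3 and, through EED, also binds it, so that the mark can spread over long stretches of repressed chromatin. RING1A and RING1B are the ubiquitin ligases of the Polycomb complex PRC1, which place uH2A, and BMI1 is their partner in one form of that complex.

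PRC2 is known to favour starts rich in CG dinucleotides, and the starts of RBFOX3 are shown here for that reason. The RefSeq promoter table of GRCh38.p14 lists 12 starts for RBFOX3, all on the minus strand, each with 250 bases before and 50 after the start. The 2 windows below are the richest and the poorest in CG, which is in capitals and reads the same on both strands. The first, chr17:79609112-79609411, holds 22 CG, a number that 37.7% of all 35116 promoters in the table reach. The second, chr17:79509789-79510088, holds 4, which 75.5% reach. Over the 12 starts the median was 9.5, against 14 over all promoters in the table, and 3 of the 12 were at or above 14. These coordinates are of another build than the peaks and were not converted. No start was therefore placed on a peak, or checked to lie in the window or in the approximate gene span. Because the gene runs on the minus strand, its start side is the side of high coordinates.
RBFOX3 start richest in CG: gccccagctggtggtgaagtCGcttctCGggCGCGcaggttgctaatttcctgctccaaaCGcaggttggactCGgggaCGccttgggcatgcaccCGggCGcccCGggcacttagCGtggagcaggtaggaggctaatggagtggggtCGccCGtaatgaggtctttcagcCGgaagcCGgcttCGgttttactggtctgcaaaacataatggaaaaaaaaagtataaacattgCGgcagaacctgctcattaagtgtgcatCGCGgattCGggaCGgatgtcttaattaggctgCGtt
RBFOX3 start poorest in CG: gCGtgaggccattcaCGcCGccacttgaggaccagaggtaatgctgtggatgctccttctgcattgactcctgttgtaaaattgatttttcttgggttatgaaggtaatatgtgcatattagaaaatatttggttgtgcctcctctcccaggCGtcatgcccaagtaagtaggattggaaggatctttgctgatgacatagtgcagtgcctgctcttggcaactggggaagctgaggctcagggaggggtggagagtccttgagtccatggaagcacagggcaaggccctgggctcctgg

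The H3K27me3 control list had 317 peaks in the window, which covered 178275 bp or 35.7% of it. The H3K27me3 knockdown list had 0 peaks there and covered 0 bp. Over all chromosomes the knockdown list had 0.119 times as many peaks as the control list and 0.0858 times the covered length, and 3.81% of all control H3K27me3 peaks overlapped a knockdown peak. At RBFOX3 0 of 317 did. The 4205 tallest of the 35368 control peaks, as many as the knockdown list holds in all, included 55 of the 317 at this locus. These 4205 peaks are 0.119 of the control list, and the locus was selected on these control values. Heights had a median of 57.3 over the knockdown list and 40.8 over the control list. Windows without knockdown peaks were common: of 2551 other 500-kb windows with control H3K27me3 peaks, 87.2% had none in knockdown cells. They were less common among dense windows: of the 20 of them with the greatest control H3K27me3 length, 9 had none.

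**Figure D1:**
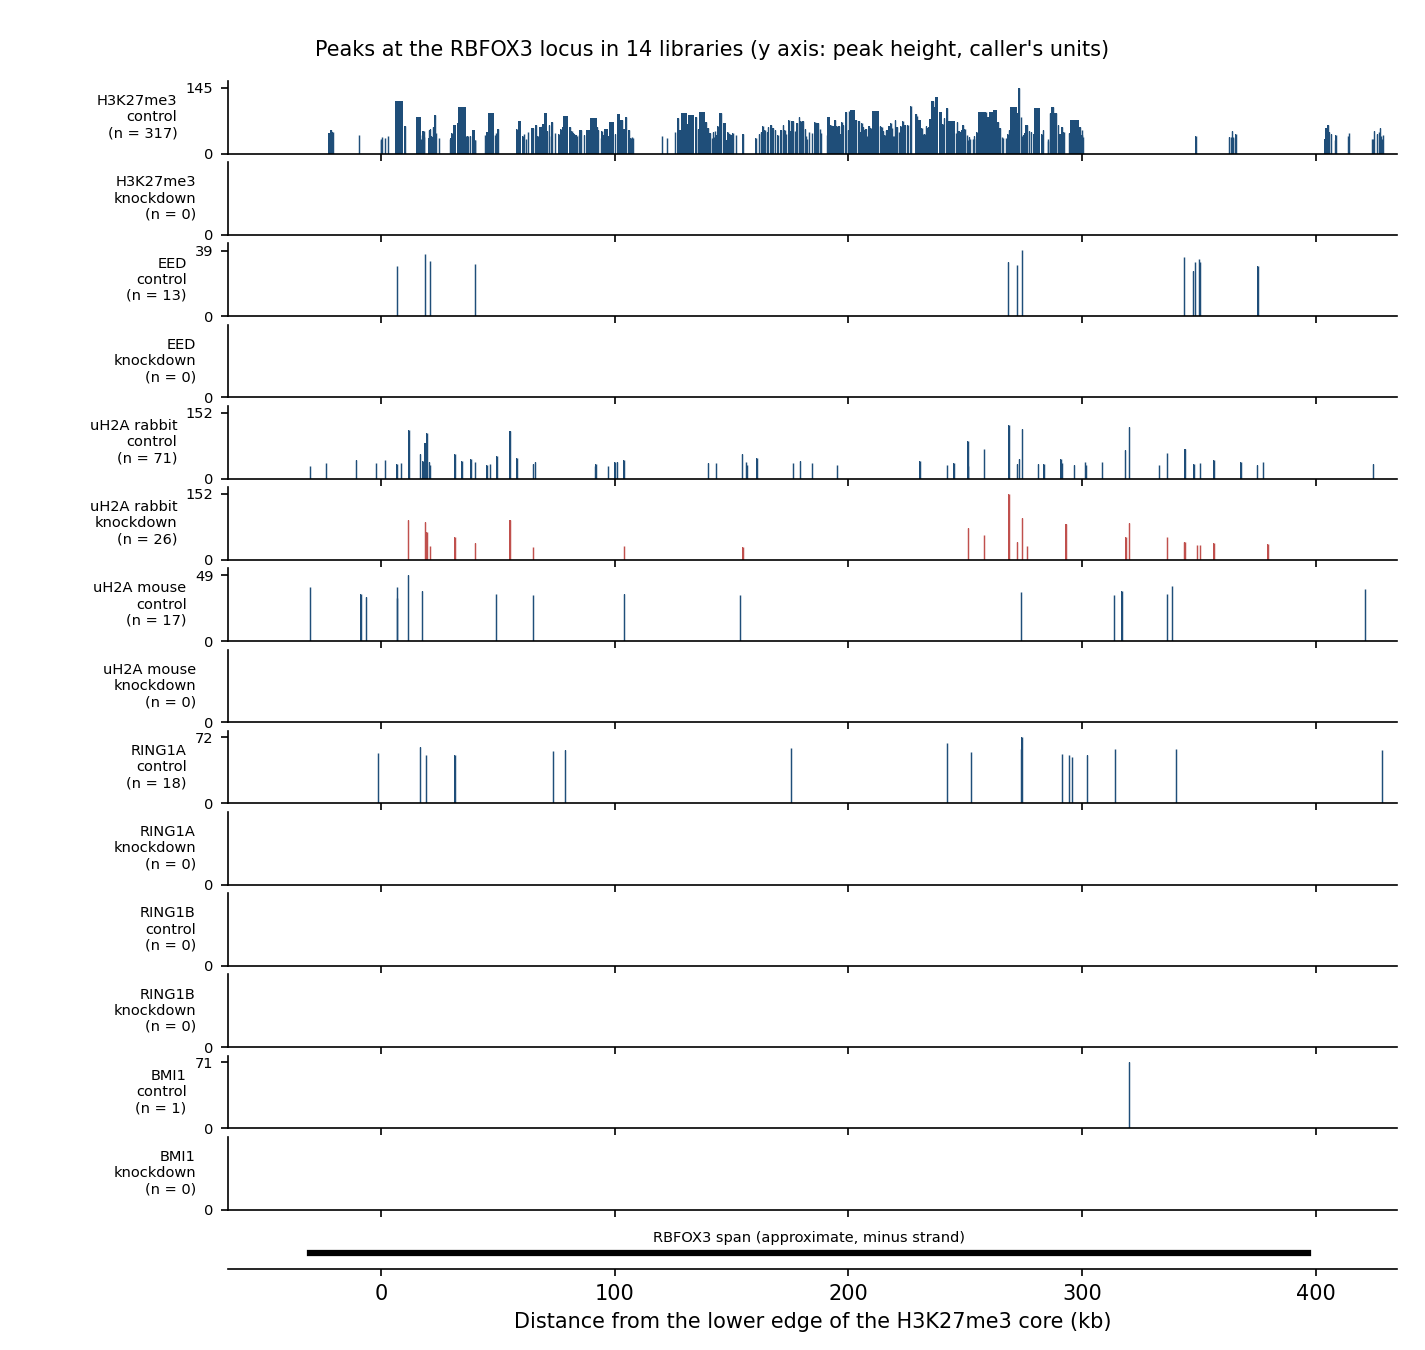
Peaks of all 14 libraries across the RBFOX3 window, control in blue and knockdown in red. The x axis is the distance in kb from the lower edge of the H3K27me3 core, each bar is 1 peak (short ones drawn at a minimum line width), the y axis is its height in the caller's units (scaled per antibody), and the black line is the approximate gene span. The H3K27me3 core spans 300.5 kb in control cells, and the mark has 0 peaks in knockdown cells, where the rabbit uH2A antibody alone has any, 26.

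In control cells the mark formed one dense core with small islands on both sides. Peaks were joined into blocks where at most 5000 bp lay between them, which gave 11 blocks. The 4 with at least 20 peaks are called the core, a definition made after their values were seen. It ran from 77115501 to 77416025, a span of 300.5 kb with 288 peaks. H3K27me3 peaks covered 56.6% of the core, and it held 95.3% of the covered length of the window. The core began 30.5 kb inside the low end of RBFOX3, the side on which transcription ends. It ended 96.0 kb before the high end, the side on which transcription begins, and spanned 70.4% of the gene. The 12 RefSeq starts are spread over 234 kb in GRCh38.p14, so this end is not the one start of the gene. Both distances rest on the approximate gene ends.

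The 4 large blocks differed in density, and each of the other 3 was denser than the first. The block nearest the low end, 77115501 to 77165850, had 42 peaks over 43.8% of its length, with a median height of 40.6. The next, 77173351 to 77223200, had 56 peaks over 71.1% of its length, with a median height of 49.5. The block from 77235651 to 77270650 had 29 peaks over 57.1% of its length and a median height of 47.8. The last and longest, 77275701 to 77416025, spanned 140.3 kb and had 161 peaks over 65.9% of its length, with a median height of 55.8. Heights are compared here within 1 list, whose median over all chromosomes was 40.8. By bins of 10 kb the highest cover was 90.0%, at 77370001 to 77380000, and the lowest inside the core was 2.25%, at 77230001 to 77240000.

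**Figure D2:**
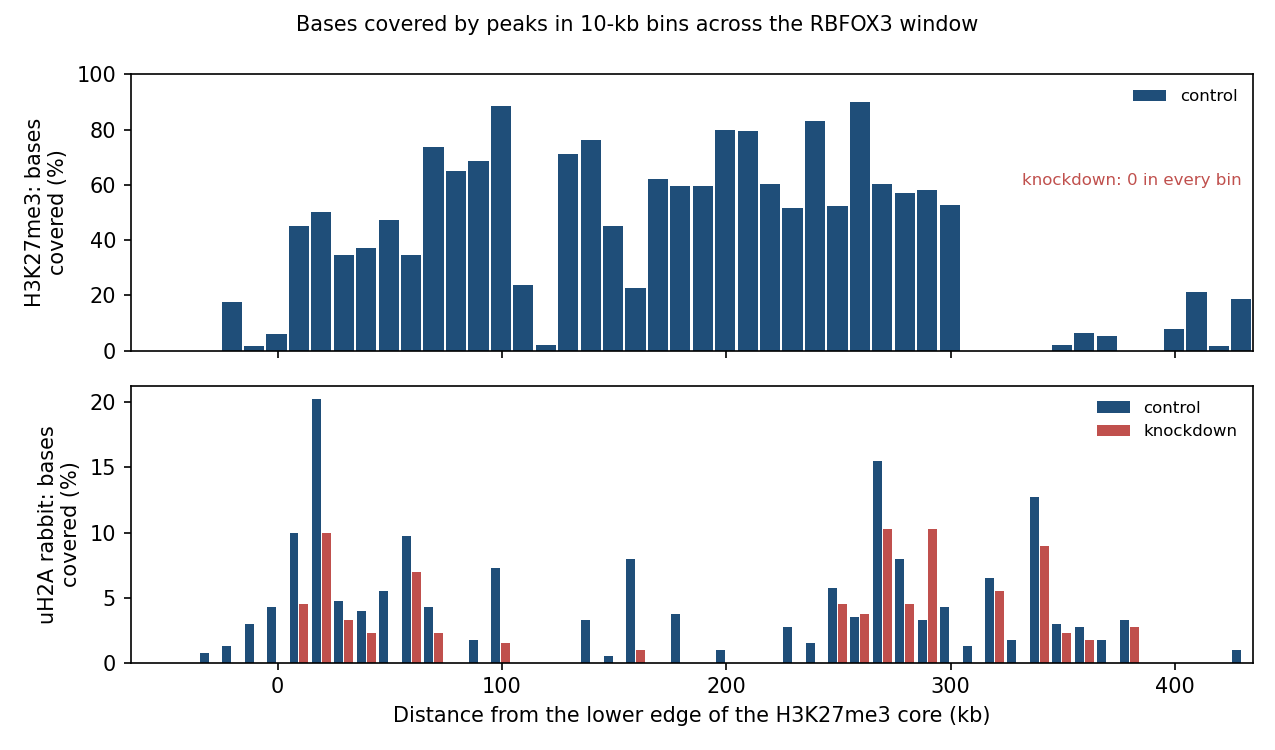
Share of bases covered by peaks in 10-kb bins of the RBFOX3 window, for H3K27me3 (top) and the rabbit uH2A antibody (bottom), in control (blue) and knockdown cells (red). The x axis is the distance from the lower edge of the H3K27me3 core in kb. H3K27me3 cover reaches 90.0% in 1 bin of the core and is 0 in every knockdown bin, while uH2A control bars stand mostly towards the ends of the core and above it.

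Single H3K27me3 peaks were long for their list, and most were taller than its median. Their lengths ran from 75 to 3675 bp with a median of 350 bp, against 200 bp over the whole list. Peaks of at least 1 kb made up 14.5% of the 317, against 4.20% of all control H3K27me3 peaks. The longest was 77121376 to 77125050 with a height of 115, near the low edge of the core. The next in length were 77410476 to 77414125 at the high edge (3650 bp), 77325401 to 77328775 (3375 bp), 77148526 to 77151650 (3125 bp) and 77370976 to 77374000 (3025 bp). Heights ran from 28.8 to 145.0 with a median of 50, against 40.8 over the whole list, and none was 0. Of the 317 peaks, 226 were taller than that list median. The tallest was a peak of 750 bp at 77388201 to 77388950, and 1.43% of the peaks of the list were taller than it. The next tallest were 77352451 to 77353775 (height 124.8), 77351001 to 77351950 (height 116), the longest peak again, and 77342001 to 77342350 (height 104). Length and height went together over the 317 peaks, with a Spearman rho of 0.83. All these peaks share 1 library, and the value is a description.

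Most gaps between H3K27me3 peaks were short. Of 316 gaps, 89 were at most 100 bp and 284 at most 1000 bp, with a median of 212.5 bp and a minimum of 25 bp, the step in which the caller gives lengths. The number of peaks thus depends on how finely the caller split the domain, and joining peaks within 1000 bp left 33. Only 10 gaps were over 5000 bp. The widest, 47.9 kb from 77416026 to 77463950, bounds the core on its high side. The second, 37.8 kb from 77481401 to 77519175, holds the approximate start-side end of RBFOX3. The third, 14.2 kb from 77464176 to 77478400, lies between them. The fourth, 12.5 kb from 77223201 to 77235650, splits the core, and no list of either cell line had a peak in it. The fifth, 10.8 kb from 77095101 to 77105875, lies below the core.

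The islands outside the core were small. They held 29 peaks and 8325 bp, with a longest peak of 775 bp, a tallest height of 63.0 and a median height of 42.0, against 52.0 in the core. The first H3K27me3 peak of the window was 77092951 to 77093475, 7.95 kb inside the low end of the gene. The last was 77544126 to 77544300, above the approximate gene span, where 18 peaks covered 4975 bp. RefSeq starts were not converted to this build, so whether these peaks lie within longer transcripts of RBFOX3 was not checked. Below the window the nearest H3K27me3 peak was at 77041301 to 77041400, and above it at 77620126 to 77620200. At the window's own edges, the last peak below it was a control peak of the rabbit uH2A antibody at 77043776 to 77044175, with a height of 89.2. The first inside it was a control uH2A mouse peak at 77085051 to 77085250, with a height of 40.0, beside the approximate low end of RBFOX3.

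The other antibodies differed widely at the locus in control cells. The rabbit uH2A antibody had 71 peaks over 17175 bp, or 142 peaks per Mb against 8.75 over all chromosomes. EED had 13 peaks over 1500 bp, or 26.0 per Mb against 4.23. The mouse uH2A antibody had 17 peaks over 2375 bp, or 34 per Mb against 10.9, and RING1A had 18 over 2075 bp, or 36.0 per Mb against 18.1. BMI1 had 1 peak of 100 bp and RING1B had 0, at list averages of 6.71 and 1.67 per Mb. The RING1B list is the shortest of the control lists, with 5155 peaks, and its average corresponds to less than 1 peak in a window of this length. These averages are not those of windows dense in H3K27me3. Over all chromosomes 25.5% of RING1B and 10.4% of BMI1 control peaks met an H3K27me3 peak. The 3 windows of 500 kb next in H3K27me3 length had 4, 0 and 1 RING1B and 11, 14 and 2 BMI1 control peaks. The antibodies to uH2A differed from each other here, 71 rabbit peaks against 17 mouse peaks. In the same 3 windows they had 93 against 30, 92 against 26 and 33 against 15, so the difference is not particular to the locus. Over all chromosomes the rabbit list had 27077 control peaks and the mouse list 33879.

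EED peaks gathered in 3 places and had a median height close to that of their list. Their heights ran from 27 to 39.4, with a median of 32.2 against 32.4 for the list. Inside the core 7 peaks lay near its ends, 4 of them between 77122126 and 77155850 and 3 between 77383926 and 77389775, and none in the middle. The other 6 lay above the core, between 77459001 and 77490575. The tallest was 77389601 to 77389775 (height 39.4), followed by 77134326 to 77134400 (37.2) and 77459001 to 77459100 (35.0). The longest was 77465401 to 77465600, with 200 bp. Of the 13, 5 met an H3K27me3 peak (38.5%, Clopper-Pearson interval 13.9 to 68.4), against 5.40% of EED peaks over all chromosomes. These and the following shares stand beside a window of which H3K27me3 covered 35.7%. The rabbit uH2A antibody met 11 of the 13 (84.6%, 54.6 to 98.1), against 50.7% of all EED peaks.

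RING1A and the mouse uH2A antibody had short peaks, and unlike EED both had some in the middle of the core. They shared 1 merged site with each other, a number not computed over all chromosomes. Heights of RING1A ran from 50 to 71.6, with a median of 57.3 against 58.6 for its list. The tallest were 77389526 to 77389750 (71.6), 77357501 to 77357600 (65.6) and 77132176 to 77132375 (61.0). Of 18 RING1A peaks, 10 met H3K27me3 (55.6%, 30.8 to 78.5), against 6.28% of the list, and 6 met a peak of the rabbit uH2A antibody, against 14.7%. Heights of the mouse uH2A antibody ran from 32.1 to 49.2, the tallest being 77127076 to 77127350. Of its 17 peaks, 7 met H3K27me3 (41.2%, 18.4 to 67.1), against 4.94% of the list, and 6 met a rabbit uH2A peak, against 23.4%. The BMI1 peak, 77435701 to 77435800 with a height of 71.0, lay in the widest H3K27me3 gap, inside a rabbit uH2A peak and 19675 bp from the nearest H3K27me3 peak.

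Peaks of these 6 antibodies merged into 95 sites, of which 72 had 1 antibody, 21 had 2 and 2 had 3. Such sites were not counted over all chromosomes, so this split is not shown to be particular to the locus. One site of 3, 77122026 to 77122350, had EED and both uH2A antibodies and lay inside the longest H3K27me3 peak. The other, 77389526 to 77390325, had EED, RING1A and the rabbit uH2A antibody and held the tallest EED and the tallest RING1A peak of the locus. Its uH2A peak met an H3K27me3 peak, while its EED and RING1A peaks each lay 50 bp from one. Knockdown cells had a rabbit uH2A peak at the second of these sites and none at the first.

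The rabbit uH2A peaks ran from 28.0 to 124.2 in height and from 75 to 1050 bp in length. Inside the core there were 52, of which 44 met an H3K27me3 peak, while none of the 4 below it and the 15 above it did. Over the window, of which H3K27me3 covered 35.7%, 44 of 71 did (62.0%, 49.7 to 73.2), against 10.1% of the list. In the other direction 47 of 317 H3K27me3 peaks met a rabbit uH2A peak, against 7.17%. The tallest were 77383851 to 77384325 (height 124.2), 77435576 to 77435925 (118.1) and 77389551 to 77390325 (114.5). The longest, 77459026 to 77460075, lay in the widest H3K27me3 gap, and 77170276 to 77171000, with 725 bp, stood alone in a gap of 7500 bp that splits the core.

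The tall uH2A peaks had few of their bases under H3K27me3 peaks. Of the 10 tallest, 17.7% of the bases were under an H3K27me3 peak, a number of peaks chosen after their values were seen. Split at the median height of the list, 39.2% of the bases of the 41 taller peaks and 70.4% of those of the 30 lower ones were under H3K27me3. By number, 24 of the 41 and 20 of the 30 met an H3K27me3 peak, against 11.6% and 8.60% over all chromosomes. Higher shares here were built in, because the window was selected on H3K27me3, which covered 35.7% of it. The taller peaks were also longer, with a median length of 275 bp against 125 bp, and 2 of the 10 tallest lay above the core, where H3K27me3 is sparse. No test of this split was made.

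**Figure D3:**
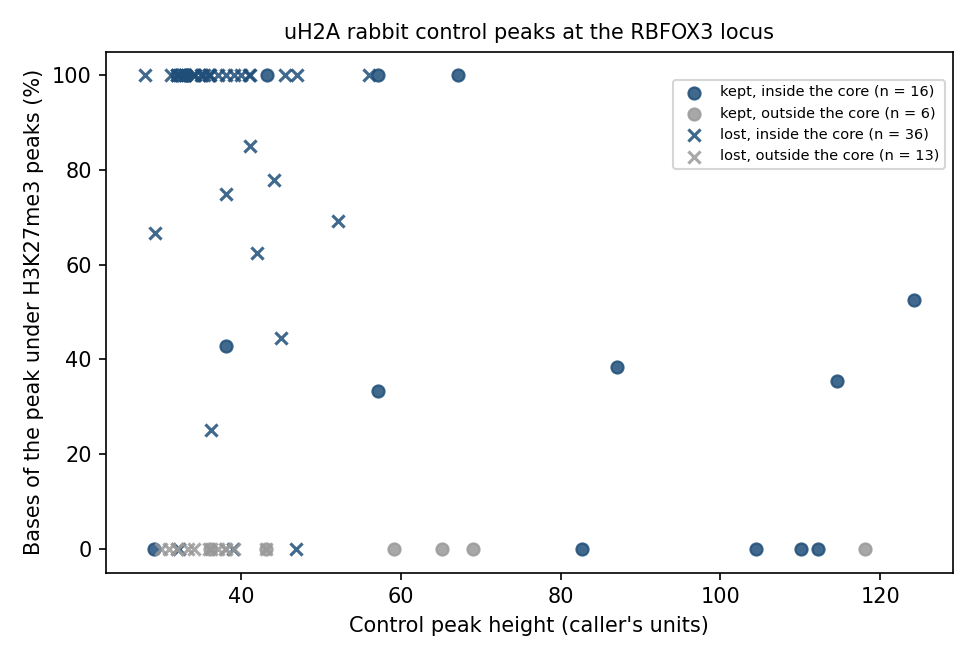
The 71 rabbit uH2A control peaks of the RBFOX3 window. The x axis is the height in the caller's units, the y axis is the percentage of the peak's bases under control H3K27me3 peaks, circles are peaks kept in knockdown cells, crosses are lost ones, and blue and grey mark peaks inside and outside the core. The peaks above a height of 80 are all kept and have 52.6% or less of their bases under H3K27me3.

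In knockdown cells the rabbit uH2A antibody was the only one of the 7 with peaks at the locus. It had 26 peaks over 8625 bp, 0.366 times the control number (exact interval 0.224 to 0.581) and 0.502 times the control length. Over all chromosomes these ratios were 0.418 and 0.490. By number, 22 of the 71 control peaks were kept (31.0%, 20.5 to 43.1), against 28.8% of the whole list. With the control list limited to its tallest peaks, as many as the knockdown list has, 16 of 32 were kept (50%, 31.9 to 68.1), against 52.7% of the list. EED kept 0 of 13, RING1A 0 of 18 and the mouse uH2A antibody 0 of 17, where the lists as a whole kept 5.79%, 4.07% and 10.7%. The upper limits of these 3 shares, 24.7%, 18.5% and 19.5%, lie above the shares of the lists. The single BMI1 peak was lost, in a list that kept 21.1%.

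Height went with keeping at this locus as it did in the list. The 10 tallest control uH2A peaks were all kept, and 96.8% of peaks at least as tall over all chromosomes were. Of the 41 peaks at or above the list median 17 were kept, against 46.8%, and of the 30 lower ones 5, against 10.7%. On H3K27me3 peaks 11 of 44 were kept (25%, 13.2 to 40.3), against 32.3% over all chromosomes, and off them 11 of 27 (40.7%, 22.4 to 61.2), against 28.4%. These intervals overlap each other and both hold the share of the list. Inside the core the 16 kept peaks had 38.0% of their bases under H3K27me3 and the 36 lost ones 83.7%, shares not computed over all chromosomes. By number the difference was smaller, as 11 of the 16 and 33 of the 36 met an H3K27me3 peak. The kept peaks had a median height of 62.2 and the lost ones 36.3, so height moved with this difference, and its part in it was not tested.

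Most kept peaks were lower in the knockdown list. The libraries were not scaled to each other, and the medians of the lists were 36.3 in control and 35.3 in knockdown cells, a ratio of 0.973. Over 22 pairs of overlapping peaks the knockdown to control ratio of height ran from 0.524 to 1.23 with a median of 0.858. The knockdown peak was the lower one in 18, and 1 control peak counts in 2 pairs. This ratio was not computed over all kept peaks of the list, so the fall is not shown to be particular to the locus. The tallest peak, at 77383851, had a height of 124.2 in control and 152.2 in knockdown cells, at a site with EED and H3K27me3 peaks in control cells only. At 77389551 the height was 114.5 in control and 95.6 in knockdown cells, at 77170276 it was 110.1 and 92.5, and at 77435576, the site with BMI1, it was 118.1 and 84.0. The longest control peak, 77459026 to 77460075, met 2 knockdown peaks of 375 and 250 bp, both with a height of 41.0 against 69.1.

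**Figure D4:**
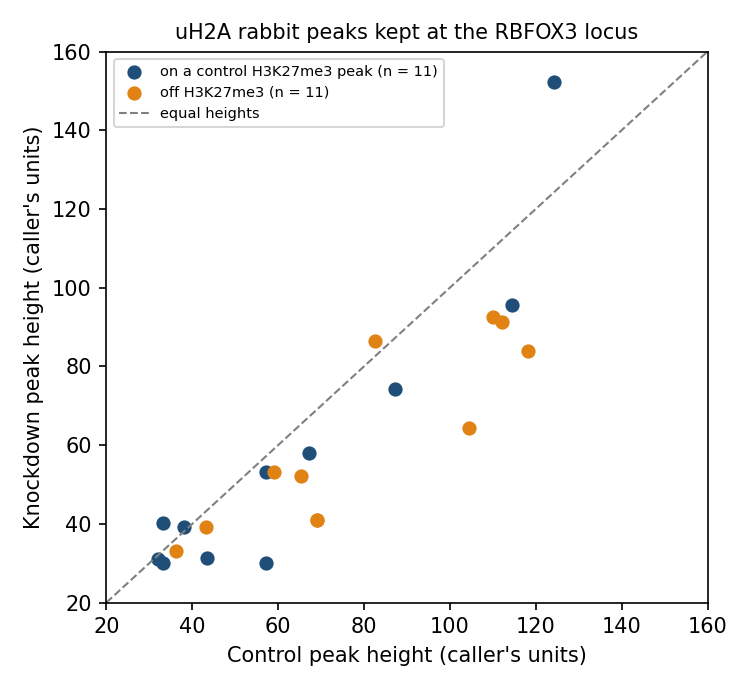
Heights of the 22 pairs of overlapping rabbit uH2A peaks at RBFOX3, control on the x axis and knockdown on the y axis, both in the caller's units and not scaled between libraries. Blue points meet a control H3K27me3 peak, orange points do not, and the dashed line marks equal heights; 18 points lie below it.

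Of the 26 knockdown uH2A peaks 22 lay on a control peak (84.6%, 65.1 to 95.6), against 69.8% of the list. Where control cells had H3K27me3 lay 12 of the 26 (46.2%, 26.6 to 66.6), against 9.23%. The window was selected on control H3K27me3, which covered 35.7% of it, so a share above that of the list was built in. The other 4 were at positions without a control uH2A peak. The longest of the 26 is one of these, 77407976 to 77409000, with 1025 bp and a height of 82.2. It lies inside the core, between H3K27me3 peaks of control cells and 975 bp from the nearest control uH2A peak. The remaining 3 (77391701 to 77391850, 77464651 to 77464750 and 77494751 to 77495025) had heights of 31.1 to 36.1, and all 4 are named after their values were seen, because they are so few. Inside the core the knockdown uH2A peaks covered 51.0% of the control length and above it 57.4%. Below the core, 4 control peaks had no counterpart. In the 100 kb on each side of the window the uH2A control list had 9 and 2 peaks and the knockdown list 2 and 1.

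Set beside the rest of the genome, the window stood apart in H3K27me3 and less so or not at all in the other lists. Its 178275 bp were 1.70 times those of the next densest of 6201 other windows of 500 kb, on chromosome 8 at 142500001 to 143000000 (105050 bp). Windows on chromosome 10 at 134500001 to 135000000 and chromosome 16 at 86000001 to 86500000 followed with 75550 and 73775 bp. By number of peaks the window on chromosome 8 came first, with 334 against 317. The RBFOX3 window was placed around the gene, while the others lie on a fixed grid that can cut a domain. The ratio of 1.70 is therefore not between windows placed alike. With the tiling moved by 250000 bp the locus still ranked 1 by covered length, and the ratio was not computed there. By covered length RBFOX3 ranked 47 for the rabbit uH2A antibody, 314 for EED, 635 for the mouse uH2A antibody and 976 for RING1A. BMI1, with 100 bp, ranked 2109. For RING1B, with 0 bp, 551 windows ranked above it and 5650 also had 0 bp. In control cells RING1A covered 5500, 5300 and 2650 bp of the 3 next densest windows, against 2075 at RBFOX3. BMI1 covered 1800, 2075 and 600 bp there, against 100. EED covered 3525, 5675 and 1025 bp, against 1500, and mouse uH2A 4675, 3800 and 1925, against 2375. The 3 next densest windows had 22450, 29000 and 8475 bp of rabbit uH2A in control cells and 12450, 20375 and 6000 bp in knockdown cells. They held 250, 400 and 275 bp of H3K27me3 in knockdown cells, against 0 at RBFOX3. Of the 20 next densest windows, 9 had no knockdown H3K27me3 peak. Over those 20, the uH2A length in knockdown cells had a median of 48.6% of the control length, close to the 50.2% at RBFOX3.

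**Figure D5:**
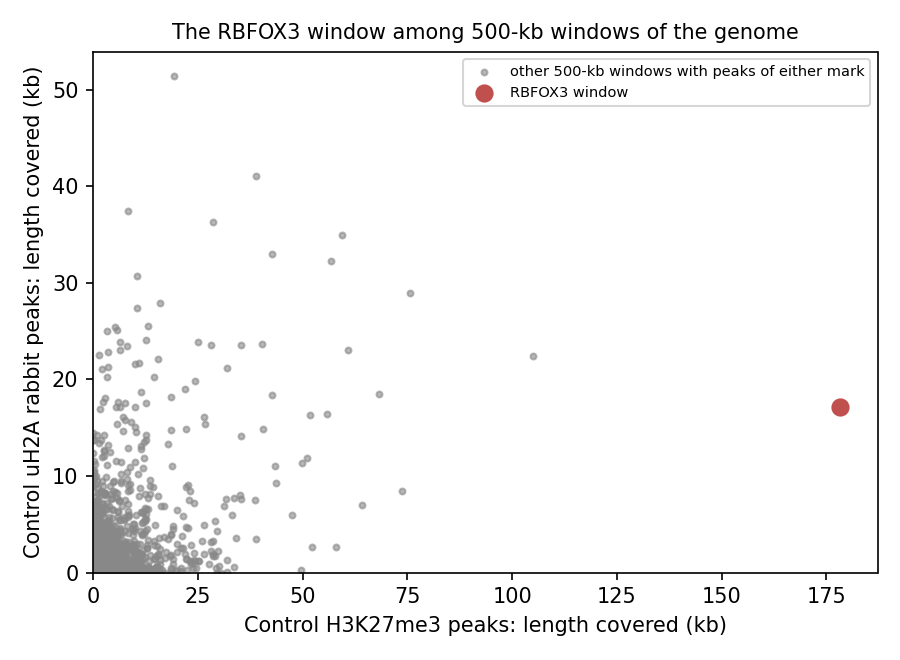
Length covered by control H3K27me3 peaks (x axis, kb) and by control rabbit uH2A peaks (y axis, kb) in 500-kb windows of the genome. Grey points are other windows with peaks of either mark and the red point is the RBFOX3 window, at 178275 and 17175 bp, which lies beyond all other windows on the x axis and among the upper ones on the y axis.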

How the data were processed

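The data are 14 ChIP-seq peak lists. Libraries were sequenced with 40-nucleotide reads, per the labels' protocols, and the submitters' processing notes name Bowtie and hg19. What settings, read depth or input control were used is not stated. There is 1 list per library, and the names of the deposited lists contain HPeak. The labels do not define the peak height, which is read here as the signal the authors' caller wrote. Some lists hold peaks of height 0, such as 1430 of 35368 in the H3K27me3 control list, and these count in the list medians. In the window no peak had that height. The score in the deposited lists has no stated definition either and was not used. The members and comparisons were chosen with earlier results of these data known. Peaks overlapping the window by at least 1 bp were taken. Overlap meant 1 bp shared, and a control peak counted as kept where the knockdown list of that antibody had an overlapping peak. Intervals are exact at the 95% level. Other windows tiled each chromosome from position 1, leaving out those that touch the locus. With 1 library per group no p-value was computed. The peaks named were, for control H3K27me3, the first, last, 5 longest and 5 tallest and the 5 widest gaps. For the other lists they are the 3 tallest and 3 longest. Overlap counting recovered the known overlaps of simulated lists. Alternatives were other heights, gaps, overlaps, tilings and spans. Python 3.11.15, numpy 2.4.6, pandas 2.3.3, scipy 1.17.1 and matplotlib 3.10.9 were used.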

Additional observations from a re-analysis of the deposited data

How the results depend on the processing

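Of 155 values under other settings, 132 moved by less than 1.5-fold or stayed within their interval, and 23 moved. No setting can add a peak to a list that has none in the window. Counts and shares of 0 there therefore say nothing on stability, although they are among the 132. In the window no peak had a height of 0, so the setting of heights above 0 could change no count there. All 31 of its values are among the 132 too. With gaps of at most 1000, 10000 and 20000 bp the H3K27me3 peaks formed 33, 6 and 3 blocks, and the longest spanned 43675 bp at 1000 bp and 323075 bp at 20000 bp. The H3K27me3 control peaks numbered 55 with equal numbers per list and 33 when merged. Keeping only peaks of the median control height or more left 41 uH2A rabbit, 6 EED, 6 uH2A mouse and 7 RING1A control peaks, and under this setting 48.8% of the uH2A rabbit peaks met H3K27me3. Within 1000 bp of H3K27me3 lay 77.5% of uH2A rabbit and 69.2% of EED peaks. With equal numbers per list 50% of uH2A rabbit peaks were kept. H3K27me3 ranked 2 by number of peaks, and uH2A rabbit ranked 85 with windows of 100000 bp, where the best window of the locus was taken. No paired analysis was possible because each group has 1 library. Depth is unknown, and a missing peak can be a mark below the threshold.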
